A study of Mus musculus with 6 samples.

Results

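The genes described here encode the contractile actin cytoskeleton of NIH3T3 mouse fibroblasts (Normal cells) and the transcription factor SRF, which drives many of them. They were chosen as 39 gene symbols, and every probe set that the array annotation pairs with exactly 1 gene symbol was taken where that symbol is on the list. This gave 38 measured genes on 40 probe sets, of 16797 genes on 18197 probe sets tested in all. Zyx had no such probe set and is not analysed here. Expression was read from 6 Affymetrix arrays. Here 3 held RNA of cells given forskolin (FSK), which stimulates adenylate cyclase and through cAMP the kinase PKA (NF), and 3 that of cells without FSK (N). All cells were plated in 25 mM glucose, moved after 16 h to medium with 1 mM glucose and harvested 72 h later, and 10 μM FSK was added to NF cells at both 24 h and 48 h. According to the study's workflow the untreated cells received the vehicle DMSO. NIH3T3 is an immortalized line, both groups are the same line, and the labels number 3 biological replicates in each group without saying how the cultures were separated, so p-values measure only the spread between these arrays. Array values come from whole cultures, so a change in every cell and a change in the share of cells that express a gene cannot be told apart.

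SRF binds a short DNA element, the CArG box, in the promoters of genes for smooth muscle actin, calponins and other parts of stress fibres. Its partners of the MRTF family are held in the cytoplasm by unpolymerized actin and enter the nucleus when actin is drawn into filaments, so that the state of the cytoskeleton feeds back on its own genes. A second family of partners, the ternary complex factors ELK1, ELK3 and ELK4, links SRF to growth factor signals. In fibroblasts, high expression of smooth muscle actin and its companions is the mark of the contractile myofibroblast state, and cAMP signalling is known to loosen stress fibres.

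The values are log2 expression values made with RMA. The arrays differed in more than treatment. On the first principal component the NF arrays ranged from 15.3 to 26.4, whereas N replicate 1 stood at -53.5, far from N replicates 2 (-3.94) and 3 (-9.91). The bound used here for dim probe sets is a mean log2 value of 3.7, the median over the probe sets tested. Of the 8269 genes at or above it, 82.9% were lower in N replicate 1 than in the mean of its fellow N arrays. Over all 8269 the median difference was -0.41 on the log2 scale. Fibroblast markers were present: 8 of 9 measured had a mean at or above the bound, Fn1 and Vim among them. Col3a1, a fibrillar collagen, rose by 1.33 (adjusted p = 0.0157 from limma), and Thy1, a surface protein of fibroblasts, had a log2 change of 0.98 that did not pass (adjusted p = 0.227), and their part in the other results was not tested. Without N replicate 1 the log2 change was 1.28 for Col3a1 and 0.56 for Thy1. All 4 endothelial, 3 leukocyte and 3 adipocyte markers measured lay below the bound. So did 5 of 6 epithelial and 10 of 12 skeletal and cardiac muscle markers. Of the smooth muscle markers, Myh11 and Myocd were below the bound in both groups, and Acta2 and Smtn were above it.

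FSK-treated cells had less mRNA for smooth muscle actin and more for the LIM protein Csrp2 than untreated cells, and these were the only members of the 38 to pass the test with all arrays (limma, adjusted p under 0.05 over all probe sets). Acta2, which encodes smooth muscle α-actin, was 2.95-fold lower in NF, and Csrp2, a partner of the actin crosslinker α-actinin, was 2.63-fold higher. These were 2.63% of the list in each direction and 5.26% in either. Over all 16797 genes the same test called 1.83% higher and 0.720% lower, or 2.55% in either direction. It called 3.33% in each direction, or 6.67% in either, of the 30 members with a mean at or above the bound. Of the 8269 genes at such a level it called 3.58% higher and 1.44% lower, or 5.02% in either direction. After a further quantile normalization the counts were 2 higher and 4 lower members, and 497 higher and 373 lower genes in all instead of 307 and 121. The median log2 change was -0.02 for the 38 members and -0.03 for all genes, and 17 member means were higher and 21 lower in NF. In 10 members the NF arrays lay entirely to one side of the N arrays, 6 below and 4 above. For all genes, the NF arrays lay entirely below in 9.70% and entirely above in 10.5%. All 10 of these members had a mean at or above the bound. Of the 30 members at such a level the NF arrays lay below in 20% and above in 13.3%, against 10.2% and 18.4% of the 8269 genes at such a level, and the median log2 change was -0.01 for these members and 0.09 for these genes.

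**Figure D1:**
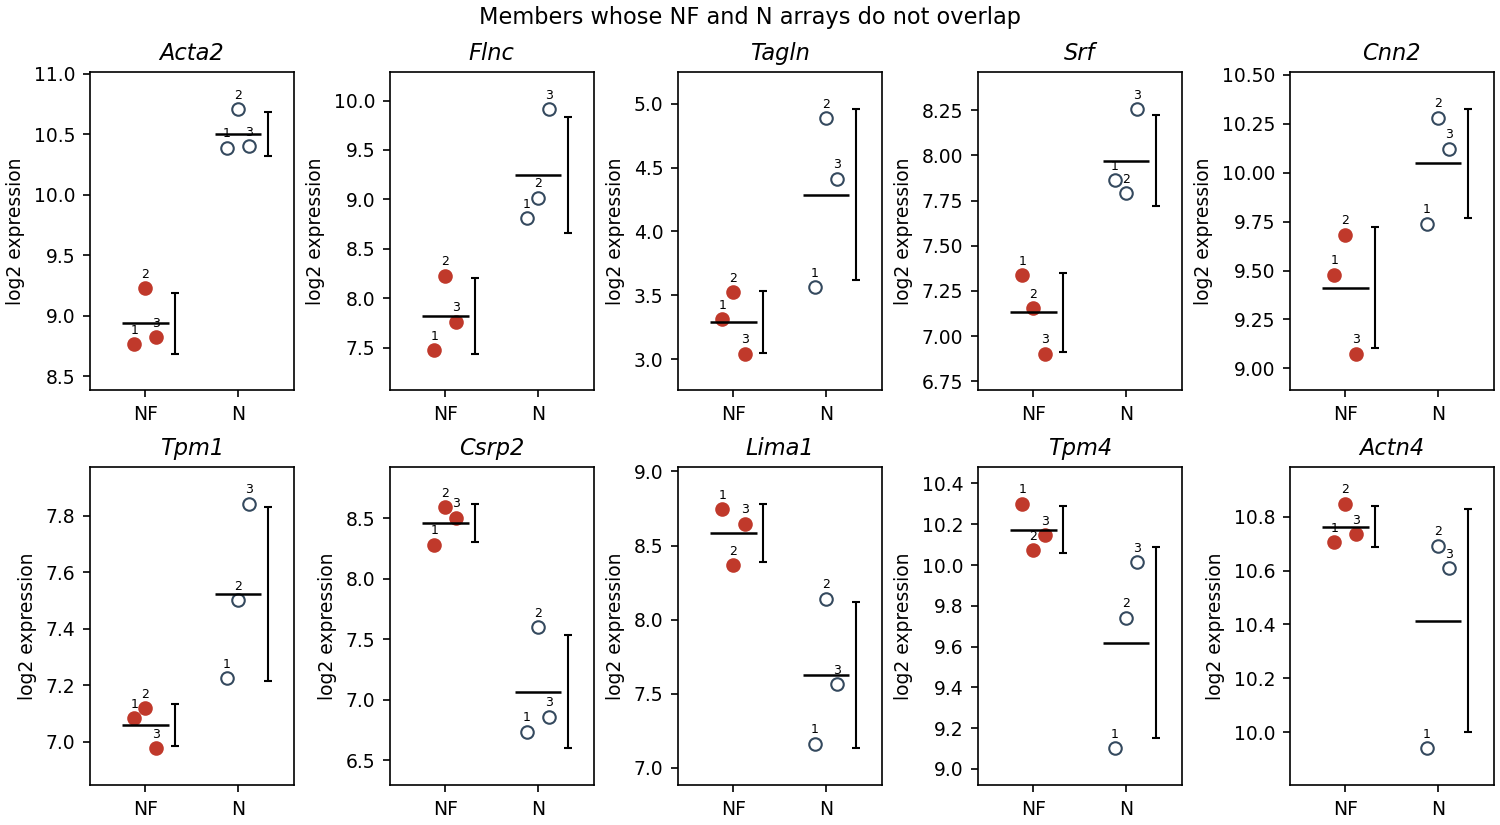
Log2 expression (vertical axis, a separate scale in each panel) of the 10 members whose arrays do not overlap between FSK-treated (NF, filled) and untreated (N, open) cells, with 1 numbered point per array, a line at the mean and a bar of ± 1 SD (n = 3). N replicate 1 is the lowest N array in every panel but that of Srf, where N replicate 2 is, and it lies far below the other N arrays for Tpm4 and Actn4.

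Srf itself had log2 values of 7.34, 7.15 and 6.90 in NF arrays 1 to 3, against 7.86, 7.79 and 8.26 in N arrays 1 to 3. Every NF array lay below every N array. The mean was 7.13 ± 0.22 in NF and 7.97 ± 0.25 in N (SD, n = 3 each), a log2 change of -0.84 with a 95% confidence interval from -1.25 to -0.43. With an adjusted p of 0.0537 from limma it narrowly missed the threshold. It passed in 5 of 14 alternative analyses, where its adjusted p ran from 0.0167 to 0.337, and 1 of these was the fit without N replicate 1 (log2 change -0.89).

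The promoter of Srf carries its own binding element. Of the 39 symbols, 36 have at least 1 promoter window in RefSeq (GRCm38.p6, 250 bases before to 50 after the start; not Tagln, Csrp2 and Actg2), and the CArG box was found in 11 of these 36 genes (30.6%), against 488 of all 27025 genes with a window (1.81%). The members were brought together as SRF-driven genes, so this share describes how the list was made. A match had to be exact (CC, then 6 letters that are each A or T, then GG), which reads alike on both strands, and neither a match nor its lack shows whether SRF binds. With 1 letter allowed to differ, a choice made after seeing the data, 21 of the 36 (58.3%) had a match, against 23.8% of all genes. The stretches of 150 bases directly before the start are shown for 3 genes that hold the exact box, Srf and Cnn2, whose NF values lay below N, and Lima1, whose NF values lay above N, with the box in capitals. They are chr17:46556163-46556312 on the minus strand for Srf, chr10:79988450-79988599 on the plus strand for Cnn2 and chr15:99820150-99820299 on the minus strand for Lima1. The same stretch of Acta2, chr19:34255374-34255523 on the minus strand, is shown because Acta2 was the member that fell. It has no exact match to the box, but 2 runs of it differ from the box in 1 letter, ccctatatgg at bases -84 to -75 and ccttgtttgg at bases -34 to -25 from the start, and both are known as SRF elements of this gene. Its capitals mark GGAATG, the letters that TEAD factors bind.
Srf: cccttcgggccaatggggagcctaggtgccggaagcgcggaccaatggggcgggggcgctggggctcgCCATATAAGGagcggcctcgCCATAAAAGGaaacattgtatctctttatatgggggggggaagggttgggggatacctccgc
Cnn2: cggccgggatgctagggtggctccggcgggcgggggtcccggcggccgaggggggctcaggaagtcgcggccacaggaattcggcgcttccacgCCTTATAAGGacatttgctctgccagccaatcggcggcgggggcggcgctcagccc
Lima1: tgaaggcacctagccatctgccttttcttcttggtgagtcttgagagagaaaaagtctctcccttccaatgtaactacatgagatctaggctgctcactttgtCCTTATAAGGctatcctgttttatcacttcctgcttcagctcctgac
Acta2: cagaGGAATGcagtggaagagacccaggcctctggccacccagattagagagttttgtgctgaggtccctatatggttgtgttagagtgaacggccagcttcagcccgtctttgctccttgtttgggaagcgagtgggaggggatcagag
Srf has 2 boxes, at bases -82 to -73 and -62 to -53 from the start. Cnn2 and Lima1 hold the same letters, CCTTATAAGG, at bases -56 to -47 and -47 to -38, and so do Vcl and Filip1l. These 4 genes with an identical box differed in direction, with log2 changes of -0.63 for Cnn2, -0.23 for Vcl, 0.63 for Filip1l and 0.96 for Lima1, none of which passed the test. An exact box and a mean at or above the bound were found in 7 genes. Of these, 5 were lower and 2 higher in NF, with a median log2 change of -0.23. Of the 21 with a window, no exact box and such a mean, 9 were lower and 12 higher, with a median of 0.06. Acta2, Flnc and Tpm1 are among these 21, and each has a run that differs from the box in 1 letter. Of the same 21, Flna, Cald1, Wdr1 and Dstn have such a run too, with log2 changes of -0.33, -0.19, -0.12 and -0.11. Tpm3 and Cfl1 also have one, with log2 changes of 0.21 and 0.11. The arrays of these further genes overlapped between the groups. Over all 8269 genes at such a level, 3327 were lower and 4942 higher. GGAATG, on either strand, was found in 12 members (33.3%, against 16.6% of all genes), the cAMP response element TGACGTCA in 0 of 36 (against 2.03%), and the shorter TGACG, which the element contains, in 11 (30.6%, against 23.0%).

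Among the muscle actins, only Acta2 stood clearly above the bound. Its log2 values were 8.76, 9.23 and 8.83 in NF arrays 1 to 3, against 10.39, 10.71 and 10.40 in N arrays 1 to 3. The highest NF array lay more than a full log2 unit below the lowest N array. The mean was 8.94 ± 0.25 in NF and 10.50 ± 0.18 in N (SD, n = 3 each), which gave -1.56 for the log2 change, with 0.17 as its standard error and 0.00843 as its adjusted p from limma. The log2 change lay between -1.76 and -1.46 over the alternatives, and the gene passed in 11 of 14 of them, with adjusted p from 0.00146 to 0.215. It missed the threshold without NF replicate 1 (log2 change -1.47, adjusted p = 0.0724) and without NF replicate 3 (-1.50, adjusted p = 0.0758), fits in which 1 and 2 of all genes passed. The other muscle actins, Actg2 of visceral smooth muscle, Acta1 of skeletal muscle and Actc1 of the heart, had mean log2 values between 3.28 and 3.69 in NF and between 3.45 and 3.89 in N, at or below the bound or just above it, and log2 changes between -0.20 and -0.02. Actin genes are nearly identical in their coding parts, so probes of one can also bind mRNA of another.

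The calponin family, small proteins that bind along actin filaments, was split. Tagln, or SM22α, an early marker of smooth muscle, had log2 values of 3.31, 3.52 and 3.04 in NF, against 3.56, 4.89 and 4.41 in N replicates 1, 2 and 3. N replicates 2 and 3 stood well above NF, while N replicate 1 was barely above the highest NF array. The log2 change was -0.996 with a 95% confidence interval from -1.71 to -0.28 (adjusted p = 0.189 from limma), and without N replicate 1 it was -1.36 and passed the test. Since the NF mean, 3.29, is below the bound, the size of this difference is uncertain. Cnn2, a calponin of non-muscle cells, had log2 values of 9.48, 9.68 and 9.07 in NF arrays 1 to 3, against 9.74, 10.28 and 10.12 in N arrays 1 to 3. The groups did not overlap, though NF replicate 2 came close to N replicate 1. Its log2 change of -0.63 did not pass with all arrays (adjusted p = 0.201 from limma) and passed without N replicate 1 (-0.79). Tagln and Cnn2 each passed in 2 of 14 alternatives, with adjusted p from 0.00481 to 0.577 and from 0.0213 to 0.581. Their relatives Tagln2 and Cnn3 had log2 changes of 0.25 and 0.33 with overlapping arrays, and Cnn1, the calponin of differentiated smooth muscle, was below the bound in mean.

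Non-muscle myosin showed no difference beyond the spread of the arrays. Myh9, the heavy chain of myosin IIA that pulls on stress fibres, had log2 values of 10.94, 10.89 and 10.86 in NF arrays 1 to 3, against 10.25, 11.02 and 11.20 in N arrays 1 to 3. The NF arrays lay inside the range of the N arrays, and the 95% confidence interval of the log2 change ran from -0.47 to 0.62. For Myh10, the heavy chain of myosin IIB, the interval was -0.22 to 0.81. Myl9, a regulatory light chain, and Mylk, the kinase that activates myosin by phosphorylating light chains, had means below the bound in both groups.

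The tropomyosins, which wrap around filaments and control what else may bind, differed among themselves. Tpm1 had log2 values of 7.08, 7.12 and 6.98 in NF arrays 1 to 3, against 7.22, 7.50 and 7.84 in N arrays 1 to 3. Tpm4 had 10.30, 10.07 and 10.15 in NF, against 9.10, 9.74 and 10.01 in N. The 2 genes thus lay on opposite sides, Tpm1 with NF below N and Tpm4 with NF above N, and neither passed the test, with log2 changes of -0.46 (adjusted p = 0.279) and 0.55 (adjusted p = 0.343). Without N replicate 1 the Tpm1 value was -0.61 and passed, one of 2 of 14 alternatives in which it did (adjusted p from 0.0267 to 0.650), while that of Tpm4 shrank to 0.29. Tpm2 had a log2 change of 0.40 from log2 values of 6.18, 6.22 and 6.12 in NF arrays 1 to 3, against 4.96, 6.37 and 6.01 in N arrays 1 to 3. It rested on N replicate 1, and without it the value was -0.01. Tpm3 was measured by a pair of probe sets that disagreed in sign, with 0.21 for one and -0.21 for the other, and neither passed. Each of these genes makes several isoforms, which the probe sets do not separate. Cald1, caldesmon, which restrains myosin on the filament, had a log2 change of -0.19, and Lmod1, a leiomodin of smooth muscle, was below the bound.

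**Figure D2:**
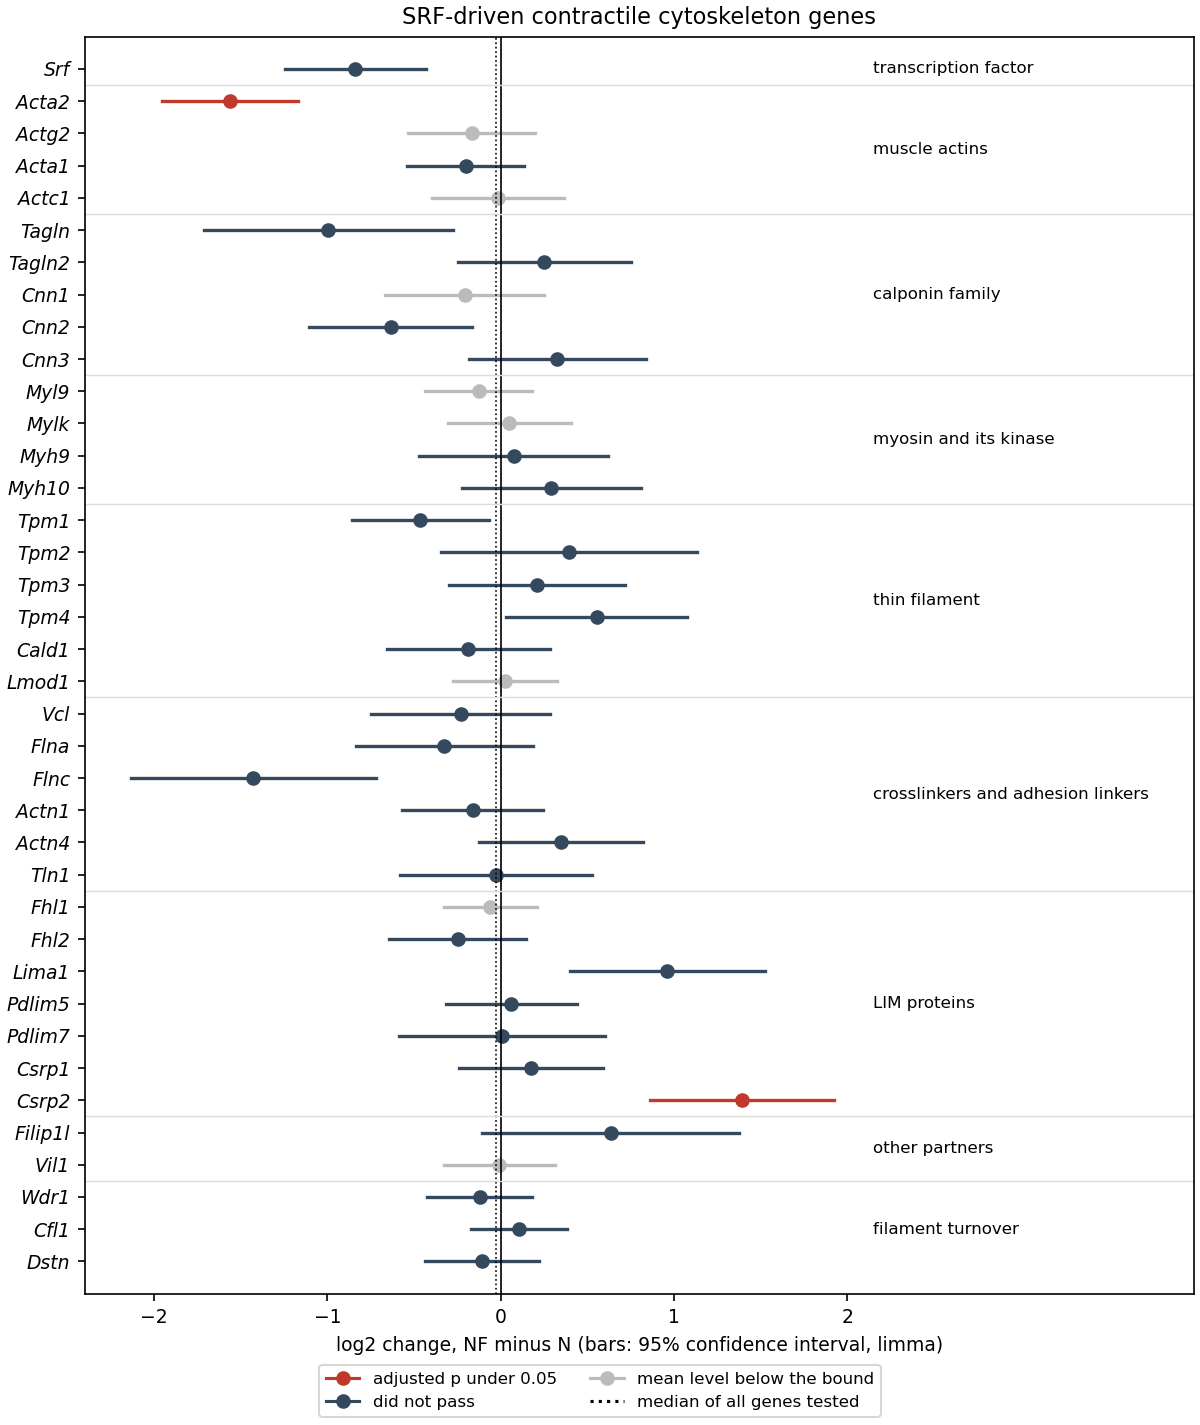
Log2 change, NF minus N (horizontal axis), of the 38 measured members by role, with the 95% confidence interval from limma. Acta2 at -1.56 and Csrp2 at 1.39 passed the test, and grey marks the 8 genes whose mean level is below the bound.

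Of the proteins that crosslink filaments or tie them to adhesions, Flnc differed most. Filamin C, which crosslinks actin mainly in muscle, had log2 values of 7.47, 8.23 and 7.76 in NF arrays 1 to 3, against 8.81, 9.02 and 9.91 in N arrays 1 to 3. All NF arrays lay below all N arrays, and both groups were spread widely. The mean was 7.82 ± 0.38 in NF and 9.25 ± 0.59 in N (SD, n = 3 each), a log2 change of -1.43 or 2.69-fold lower (standard error 0.31). Its adjusted p of 0.0584 from limma missed the threshold, and it passed in 6 of 14 alternatives (adjusted p from 0.00770 to 0.393), with a log2 change of -1.65 without N replicate 1. Its paralog Flna, the main filamin of fibroblasts, had a log2 change of -0.33 with overlapping arrays (95% confidence interval -0.84 to 0.18).

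Vcl, vinculin, which links actin to integrin adhesions, had log2 values of 8.16, 8.03 and 8.14 in NF arrays 1 to 3, against 7.80, 8.60 and 8.62 in N arrays 1 to 3. N replicate 1 was the lowest array of all 6 and N replicates 2 and 3 the highest. The log2 change was -0.23 and did not pass, and without N replicate 1 it was -0.50 and did, the 1 of 14 alternatives in which Vcl passed (adjusted p from 0.0486 to 0.896). Tln1, talin, which connects integrins to vinculin and actin, showed the same layout, with 8.31, 8.37 and 8.32 in NF arrays 1 to 3, against 7.77, 8.67 and 8.65 in N arrays 1 to 3, and a log2 change of -0.03. The α-actinins Actn1 and Actn4, which bundle filaments, had log2 changes of -0.16 and 0.35. For Actn4 the NF arrays, at 10.70, 10.85 and 10.74, lay above those of N, at 9.94, 10.69 and 10.61, by little beyond N replicate 1, and the change was 0.11 without that array.

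The LIM proteins, adaptors of filaments and adhesions, included the 2 highest log2 changes of the list. Csrp2 had log2 values of 8.28, 8.59 and 8.50 in NF arrays 1 to 3, against 6.73, 7.60 and 6.86 in N arrays 1 to 3. The lowest NF array stood above the highest N array, which was N replicate 2. The mean was 8.46 ± 0.16 in NF and 7.06 ± 0.47 in N (SD, n = 3 each), which gave 1.39 for the log2 change, with 0.23 as its standard error and 0.0265 as its adjusted p from limma. The call was lost without N replicate 3 (log2 change 1.29, adjusted p = 0.0788), NF replicate 1 (1.48, adjusted p = 0.121), NF replicate 2 (1.33, adjusted p = 0.0791) or NF replicate 3 (1.37, adjusted p = 0.171), and the gene passed in 9 of 14 alternatives (adjusted p from 0.0130 to 0.310). The log2 change itself stayed between 1.16 and 1.66 in them.

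Lima1, or EPLIN, which stabilizes actin bundles, had log2 values of 8.75, 8.37 and 8.65 in NF arrays 1 to 3, against 7.16, 8.14 and 7.56 in N arrays 1 to 3. The groups were separate, with N replicate 2 close to NF. The log2 change was 0.96 with a 95% confidence interval from 0.40 to 1.53 and did not pass (adjusted p = 0.100 from limma), while it passed in 2 of 14 alternatives, among them the fit without N replicate 2 (1.22), with adjusted p from 0.0349 to 0.422. Csrp1, the closest relative of Csrp2 on the list, had a log2 change of 0.17 (95% confidence interval -0.24 to 0.59). Fhl2, whose protein can bind SRF, and the PDZ-LIM proteins Pdlim5 and Pdlim7 of the α-actinin scaffold had overlapping arrays. Their log2 changes were -0.25, 0.06 and 0.01, and Fhl1 was below the bound. Filip1l had a log2 change of 0.63 by one probe set (95% confidence interval -0.11 to 1.38) and lay near the lowest values of the array by its other one. Vil1, villin of the epithelial brush border, was below the bound.

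The proteins that take filaments apart differed little between the groups. Cfl1, cofilin, had log2 values of 11.38, 11.30 and 11.22 in NF arrays 1 to 3, against 11.19, 11.13 and 11.26 in N arrays 1 to 3. Dstn, destrin, and Wdr1, which helps cofilin, likewise overlapped between groups. The log2 changes of these 3 genes lay between -0.12 and 0.11.

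**Figure D3:**
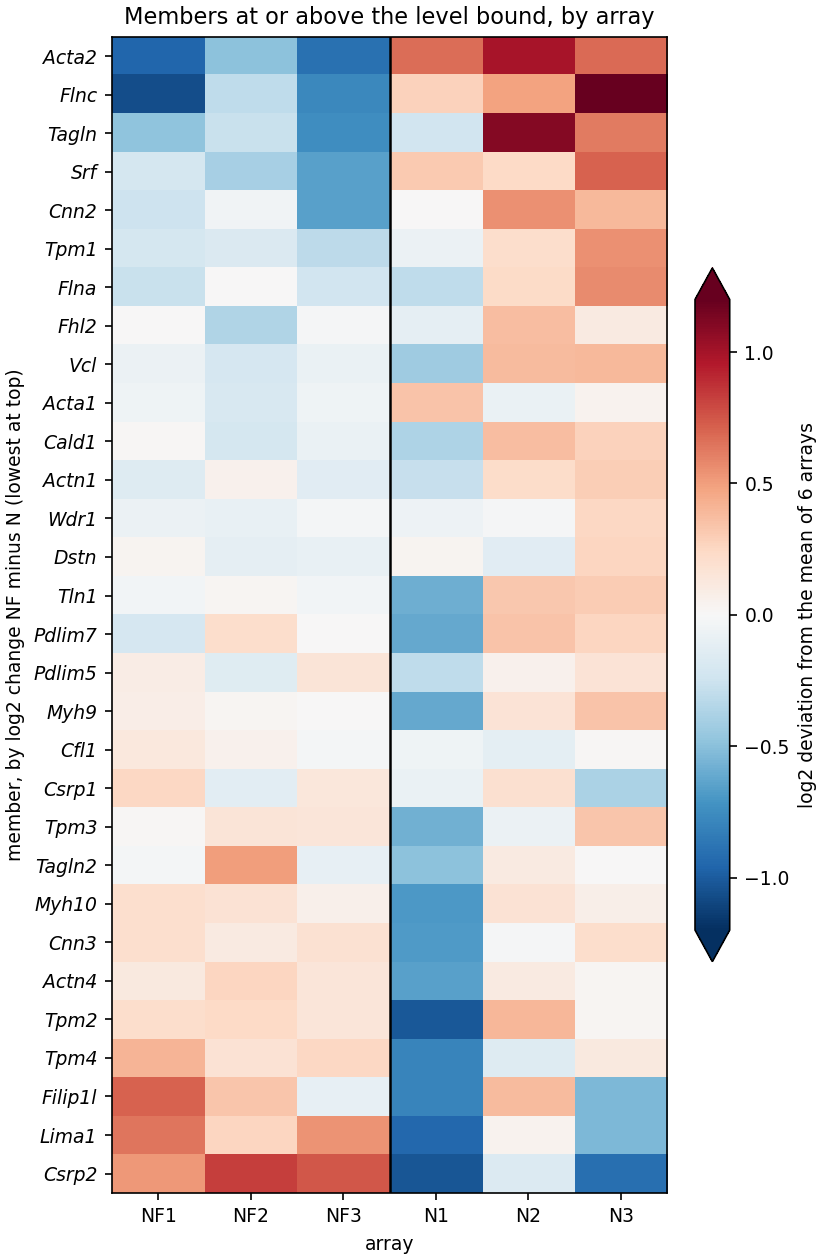
Deviation of each array (columns) from the mean of the 6 arrays on the log2 scale (colour) for the 30 members at or above the level bound, ordered by log2 change. The top 6 genes, Acta2 to Tpm1, lie below their mean in every NF array, Csrp2 and Lima1 at the bottom lie above it in every NF array, and N replicate 1 is the lowest array in 18 of the 30.

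N replicate 1 stood apart for most of this list. Of the 30 members at or above the bound, 28 were lower in N replicate 1 than in the mean of N replicates 2 and 3. Over all 30 the median difference was -0.67. This is a larger share and a larger shift than those of all such genes given above, which was not tested. The difference was largest for Tpm2, at -1.23. The median SD of these members was 0.12 among NF arrays and 0.43 among N arrays, or 0.18 among N arrays without N replicate 1. When the fit was repeated without that array, 7 members were lower in NF, namely Acta2, Flnc, Tagln, Srf, Cnn2, Tpm1 and Vcl, and Csrp2 was higher. Over all genes this fit called 2.56% lower and 2.93% higher. The median log2 change of the members became -0.10, while that of all genes was -0.02. Leaving out both N replicate 1 and NF replicate 2, which was chosen with results of these data known, gave 5 lower members and 1 higher. Over all genes that fit called 2.96% lower and 3.22% higher. With NF replicate 1 left out, 0 members passed limma's adjustment, and by unadjusted p under 0.05 it was 2 higher and 5 lower, against 5.66% and 3.22% of all genes. With NF replicate 3 left out, 0 passed as well, and by unadjusted p it was 2 higher and 3 lower, against 5.60% and 3.61% of all genes.

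**Figure D4:**
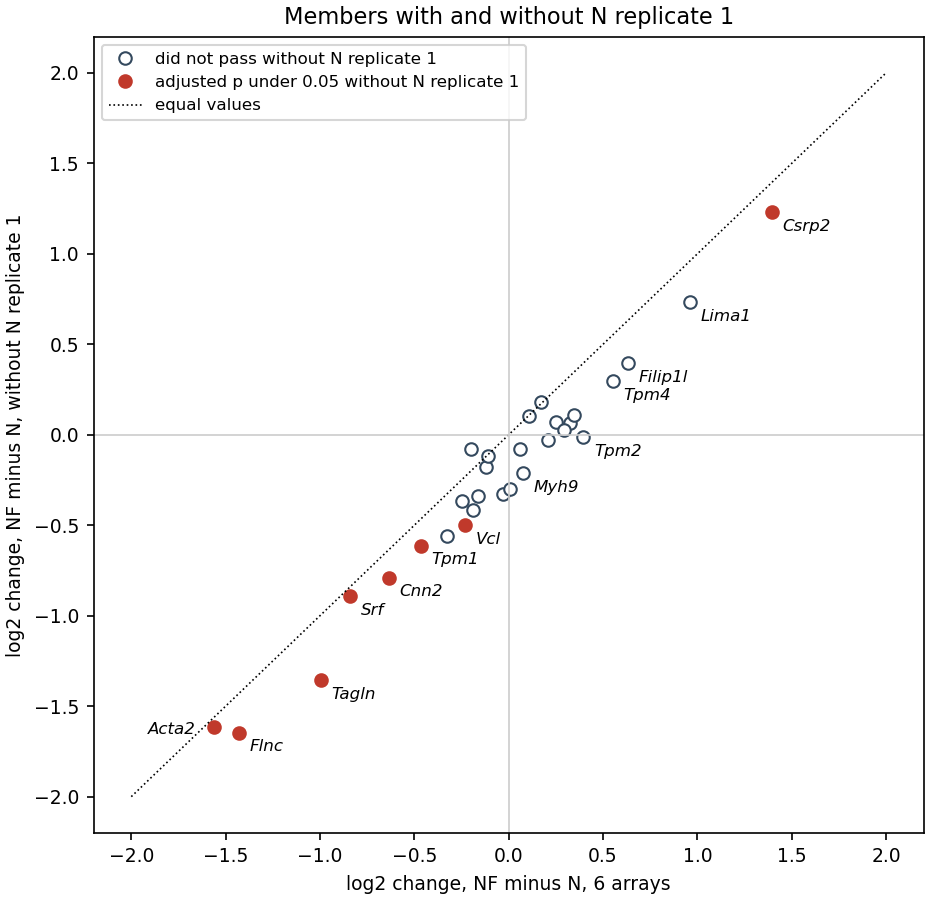
Log2 change, NF minus N, of the 30 members at or above the bound with all 6 arrays (horizontal axis) and without N replicate 1 (vertical axis). Filled points passed the test without that array, and nearly all members lie below the dotted line of equal values, such as Tpm2 at 0.40 and -0.01.

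Genes that control SRF and feed back on it were measured beside the members. Of 20 listed, 18 were measured and 0 passed limma's test, with 3 higher (16.7%) and 1 lower (5.56%) at an unadjusted p under 0.05. Of all genes, 8.33% were higher and 5.49% lower at that p, and of those at or above the bound 15.5% and 8.95%. By the methods' t-test, unadjusted, 2 were higher and 1 lower, against 5.95% and 5.13% of all genes. Mrtfa, the actin-regulated coactivator of SRF, had log2 values of 6.67, 6.39 and 6.48 in NF arrays 1 to 3, against 5.84, 6.09 and 5.82 in N arrays 1 to 3, a log2 change of 0.60 (adjusted p = 0.0799). Scai, a repressor of MRTF activity, had 6.12, 5.42 and 5.76 in NF, against 4.62, 5.11 and 4.87 in N, a change of 0.90 (adjusted p = 0.0733). For both, every NF array was above every N array. Elk4 lay below, with a log2 change of -0.51 (adjusted p = 0.0989), and Elk3 above, with 0.92 (adjusted p = 0.261). Without N replicate 1 the log2 change was -0.57 for Elk4, which passed (adjusted p = 0.0385 from limma). For Elk3 it was 0.49 and did not pass (adjusted p = 0.0896 from limma). Actb, the cytoplasmic actin that holds MRTF back, had a log2 change of 0.03 with a standard error of 0.12.

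Of 51 other genes of the actin cytoskeleton, 42 were measured, Anln, anillin of the contractile ring, rose by 1.59 (adjusted p = 0.0298) and Pdlim1, a PDZ-LIM partner of α-actinin, fell by 1.03 on the log2 scale (adjusted p = 0.0242). Next in order of p were Tmod3, which caps filaments, with -0.67 (adjusted p = 0.0511), and Tgfb1i1, or Hic-5, a LIM protein of adhesions, with -1.11 (adjusted p = 0.0659). Without N replicate 1 both passed limma's test, Tmod3 with -0.76 (adjusted p = 0.0140) and Tgfb1i1 with -1.23 (adjusted p = 0.0243). Anln and Pdlim1 lost their call without NF replicate 1 (adjusted p = 0.177 and 0.138), NF replicate 3 (0.167 and 0.158) or N replicate 3 (0.0506 and 0.0707), and Anln also without NF replicate 2 (0.0795). Over 14 alternatives Anln passed in 8 (adjusted p from 0.00208 to 0.332) and Pdlim1 in 9 (adjusted p from 0.00500 to 0.276). The median log2 changes of these lists were 0.15 for the SRF cofactors and 0.13 for the other cytoskeleton genes.

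**Figure D5:**
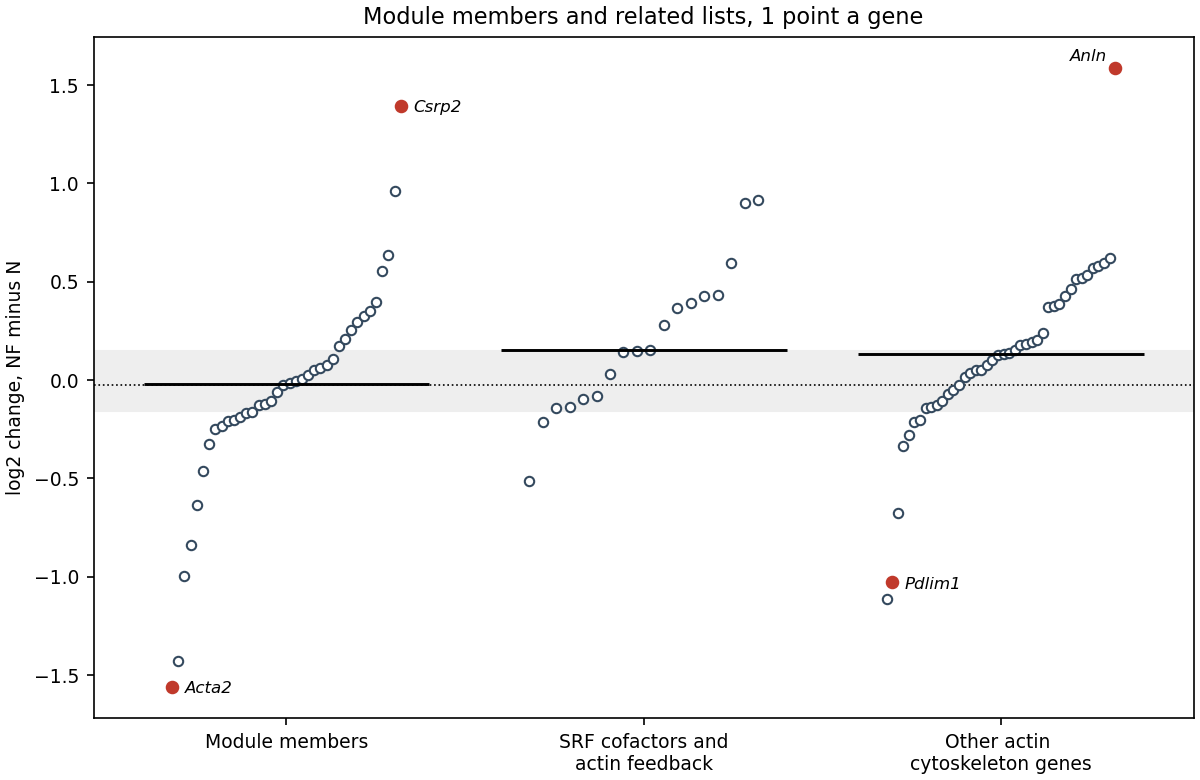
Log2 change, NF minus N (vertical axis), of each measured gene in the list of members and in 2 related lists, with a line at the median of each list, the range between the quartiles of all genes in grey and their median dotted. Filled points passed the test, namely Acta2 and Csrp2 among the members and Anln and Pdlim1 among the other cytoskeleton genes.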

How the data were processed

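Expression was deposited on the log2 scale, as RMA summaries. Per the methods and the submitters' processing notes, the authors ran RMA in the package oligo, annotated probe sets through ENSEMBL and dropped those lacking an Entrez gene (versions not given in the sources used here). Which arrays were normalized together is not stated. RMA gives no detection call and tends to compress large fold changes, and precision is limited by having few arrays.

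Of 22035 probe sets, the 18197 that GEO's platform annotation pairs with 1 symbol were tested, while 1260 with several symbols and 2578 not listed were left out. Each of the 6 columns was named by its array's accession. The contrast NF minus N was fitted by limma 3.58.1 under R 4.3.3 (lmFit, eBayes, no trend, not robust), with Benjamini-Hochberg adjustment over all probe sets and a threshold of 0.05. Where several probe sets measure a gene, the lowest p decides which stands for it, as in the methods. Genes with a mean log2 value under 3.7 count as below the bound, without a test. The members, lists and alternatives were chosen with earlier results of these data known, and the related lists were written from general knowledge. One more related list is not reported here. All members are named, and of each related list the genes past the test and those with the next lowest p. Figures were drawn with matplotlib 3.10.9 in Python 3.11.15. Promoters are from RefSeq, GRCm38.p6.

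The labels give both groups replicates 1 to 3. The deviations of arrays of the same number from their group means had correlations of -0.0748, -0.0780 and -0.0736, so the numbers were not taken as pairs. Limma was also run on simulated data of 18197 probe sets, with 50 changed at each size. It recovered 47 changed by -2 on the log2 scale, 29 at -1, 31 at 1 and 45 at 2. It called 5 unchanged ones. In the simulation both groups had the same spread and no array was shifted as N replicate 1 was, so these counts do not describe these arrays.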

Additional observations from a re-analysis of the deposited data

How the results depend on the processing

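The alternatives were a replicate block, a further quantile normalization, centring of each array on its median, leaving out probe sets below the bound, the highest-mean probe set per gene, the trend and robust options of limma, the methods' t-test, and leaving out arrays. Acta2 stayed lower and Csrp2 higher in every one of them. Their NF and N arrays did not overlap, so neither leaving out arrays nor a change of test could reverse these directions. For a gene with a single probe set, the highest-mean alternative repeats the main fit. With replicate numbers as a replicate block, 63 genes were higher and 17 lower instead of 307 and 121, while the counts of members, 1 and 1, did not move. No array correlated best with the array of its own number. Under the replicate block the other cytoskeleton genes had 0 and 0 instead of 1 and 1 (limma).

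After quantile normalization 497 genes were higher and 373 lower, with 2 members higher and 4 lower (Acta2, Flnc, Srf and Tpm1), 1 and 1 of the SRF cofactors and 3 lower among the other cytoskeleton genes. Centring gave 3 lower members (Acta2, Flnc and Srf) and 3 lower among the other cytoskeleton genes. Leaving out dim probe sets gave 3 (the same genes) and 2, and the trend and robust options gave 2 lower members. Of all genes in these fits, 1.03%, 1.78% and 0.762% were called lower in that order, against 0.720% in the main fit. The methods' t-test, unadjusted, called 1000 genes higher and 861 lower, 2 members higher and 3 lower, 2 and 1 SRF cofactors and 3 and 5 of the others. After Benjamini-Hochberg it called 1 and 0 genes, and 0 in every list. Without N replicate 1 and NF replicate 2 together the counts were 541 and 497 for all genes, 1 and 5 for members, 1 and 1 for SRF cofactors and 3 lower among the others.

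With 1 array left out at a time, the count of all genes ran from 1 to 492 higher and 0 to 430 lower, that of members from 0 to 2 and 0 to 7, that of SRF cofactors lower from 0 to 1, and that of the others from 0 to 1 and 0 to 3. The causes were not tested.

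Signs changed in 13 genes, none of them past the test. Without N replicate 1 and NF replicate 2 together the log2 changes were 0.0323 for Actc1, -0.12 for Tagln2, 0.0895 for Cnn1, -0.21 for Myh9, -0.0356 for Tpm2, -0.53 for Tpm3, -0.0119 for Lmod1, -0.40 for Pdlim7 and 0.0023 for Vil1. For Tpm3, whose probe set with the lowest p changed, the value was -0.21 with the replicate block, -0.33 after quantile normalization and -0.25 after centring. Quantile normalization gave 0.0114 for Fhl1, -0.12 for Pdlim7 and 0.063 for Vil1, and centring -0.0129 for Lmod1 and -0.0304 for Pdlim7. With 1 array left out the ranges were -0.18 to 0.11 for Actc1, -0.0515 to 0.16 for Mylk, -0.21 to 0.26 for Myh9, -0.0139 to 0.69 for Tpm2, -0.43 to 0.43 for Tpm3, -0.0305 to 0.0913 for Lmod1, -0.33 to 0.13 for Tln1, -0.0773 to 0.16 for Pdlim5, -0.30 to 0.18 for Pdlim7 and -0.10 to 0.0581 for Vil1. The counts of promoter motifs were the same upstream of the start alone, and with 1 letter of the CArG box allowed to differ, which was chosen after seeing the data, 21 members had one instead of 11.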

Other observations

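A probe set that the annotation pairs with both Tpm4 and Gm7809, and that was not tested, had log2 values of 11.53, 11.42 and 11.55 in NF arrays 1 to 3, against 11.21, 11.09 and 11.45 in N arrays 1 to 3, a log2 difference of 0.25 without a test. Tnnt2, a cardiac troponin on the list of skeletal and cardiac muscle markers, was the one marker of that list well above the bound, with log2 values of 4.63, 6.16 and 4.89 in NF arrays 1 to 3, against 6.28, 6.34 and 6.89 in N arrays 1 to 3. The NF arrays lay below the N arrays, by little for NF replicate 2, and the log2 change of -1.28 did not pass (adjusted p = 0.162 from limma).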
